A study of Mus musculus with 8 samples.

Results

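The ER translocon, N-glycosylation and COPII export genes are 44 mouse genes that carry newly made proteins into the endoplasmic reticulum (ER), process them there and ship them out. They were taken from a named list and matched by symbol to the Ensembl identifiers of 2 deposited tables of liver RNA sequencing. All 44 were found in the larger table, which lists 23634 genes, and in the smaller table, which lists 21201. By role, the list holds 4 genes of the signal recognition particle (SRP) and its receptor, 5 of the Sec61 translocon, 4 of the TRAP complex, 5 of signal peptidase, 9 of the oligosaccharyltransferase, 12 of the COPII coat and its GTPase cycle, and 5 cargo receptors.

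Liver RNA came from Cpeb4 knockout (KO) mice and wild-type (WT) mice, with 8 libraries in 4 groups of 2: KO and WT RNA from purified ER, and KO and WT RNA from total liver. The product of Cpeb4 binds the cytoplasmic polyadenylation element of mRNAs and controls their poly(A) tails and translation. The purified ER was taken from overnight-fasted mice; the labels used here name neither the feeding state behind total liver nor the kind of deletion, the age or the strain. Each table holds the authors' comparison of 4 libraries, 2 on either side, without naming the RNA preparation, the groups or the direction. The tables are therefore called larger and smaller, ER was not compared with total liver, and the side with less Cpeb4 was read as KO.

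Most proteins that hepatocytes secrete enter the ER while they are being made. SRP binds the emerging signal sequence and docks at its receptor, the Sec61 channel passes the chain through the membrane with help from TRAP, signal peptidase cuts the signal off, and the oligosaccharyltransferase attaches N-glycans. Finished cargo is gathered by receptors and leaves in vesicles that Sar1, Sec23, Sec24, Sec13 and Sec31 build at ER exit sites.

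Promoters of 36 of the 44 genes were matched in the RefSeq table for GRCm38.p6, which gives 250 bases before and 50 after each start. They were searched on both strands for the elements that the transcription factors of the unfolded protein response, ATF6 and XBP1, are known to bind, since several of these genes are textbook targets of that response. The ER stress element (CCAAT and CCACG, 9 bases apart) was in 0 of the 36, against 0.175% of the 9735 tested genes with a promoter. The ER stress element II (ATTGG and CCACG, 1 base apart) was in 1 of 36 (2.78%), against 0.0719% of the tested genes, and the core of the unfolded protein response element (TGACGTGG) was in 2 of 36 (5.56%), against 0.986%. The 5-base site CCACG, which lies within both ER stress elements and, on the other strand, within the core, was in 25 of 36 (69.4%), against 50.9%. The median GC content of the windows was 59.3% for the members and 60.2% for the tested genes. A match describes letters in a window and does not show binding. The 3 genes with a longer match are Krtcap2, a small oligosaccharyltransferase subunit, and Sec23a and Sec24d, which form the inner layer of the COPII coat. Their matches are printed on the gene's strand, with the element in capitals.
Krtcap2: gggacacggATTGGACCACGgacggggcg
Sec24d: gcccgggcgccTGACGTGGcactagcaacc
Sec23a: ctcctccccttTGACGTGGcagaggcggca
The Krtcap2 stretch lies at chr3:89246481-89246509 (plus strand), with the element 18 to 28 bases into the transcribed region. The Sec24d stretch lies at chr3:123267459-123267488 (plus strand), with the element 26 to 19 bases before the RefSeq start. The Sec23a stretch lies at chr12:59011993-59012022 (minus strand), with the element 7 to 14 bases into the transcribed region.

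The deposited tables print a mean per gene, yet the reads in each library could be worked out from them. A mean is a sum of whole reads weighted by library depth, and a single set of whole reads matched the deposited mean, fold change and standard error for 99.9% of 19438 genes in the larger table and 99.8% of 17151 in the smaller. Values below are these reads divided by relative depth, called normalised counts. Within each genotype the deeper library is called a and the shallower b, and the letter does not tie libraries of different tables to a mouse. Relative depths were 1.24 (KO a), 0.904 (KO b), 1.26 (WT a) and 0.717 (WT b) in the larger table, and 1.64, 0.839, 0.870 and 0.839 in the same order in the smaller. Cpeb4 had 506 and 580 normalised counts in KO a and KO b, against 1511 and 1657 in WT a and WT b, in the larger table. In the smaller table it had 193 and 225 in the KO libraries, against 689 and 634 in the WT libraries. Since Cpeb4 set the direction, these values are no independent check of the labels. Hepatocyte markers were abundant, with a mean count of 1.31e+06 for Alb in the authors' deposited larger table. Of the 8 hepatocyte markers, 4 (larger) and 5 (smaller) had fold changes below 0. Tat alone passed, higher in KO, with log2 fold changes of 0.70 (larger) and 0.72 (smaller) in the authors' deposited tables. Its adjusted p was 4.7e-07 (larger) and 5.3e-06 (smaller) by DESeq2's Wald test.

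Library KO a stood apart from the other 3 in both tables. The 5 measured markers of the exocrine pancreas (Prss2, Cpa1, Ctrb1, Pnlip and Cel) summed to 423 normalised counts in KO a and 3.32 in KO b, against 3.18 and 4.18 in the WT libraries, in the larger table. In the smaller table they summed to 257 in KO a and 5.96 in KO b, against 0 and 3.58 in WT a and WT b. Cel, the bile salt-activated lipase, had 34.0 and 18.2 normalised counts in KO a of the larger and smaller table and was at 0 in the other 3 libraries of each. Erythroid markers (4 of 6 with values per library) summed to less in both KO libraries, with 11224 and 9079 against 12653 and 13958 in WT in the larger table, and 13109 and 10139 against 17837 and 15418 in the smaller. Summed markers of Kupffer and endothelial cells overlapped between the genotypes in both tables. Of the 8 Kupffer markers, 7 (larger) and 8 (smaller) had fold changes below 0. Marco had 549 in WT a of the larger and 397 in WT b of the smaller table, against at most 108 and 73.6 in the other libraries. Summed stellate cell and fibroblast markers were lower in both KO libraries of each table. They had 2560 and 2543 in KO, against 2850 and 2954 in WT, in the larger table. The smaller had 1463 and 1396 in KO, against 1652 and 1575 in WT. Dcn, the most abundant of them, and Reln were lower in both KO libraries of each table. Col1a1, Col3a1 and Pdgfrb overlapped in the larger table, and Col3a1 and Des in the smaller. Among cholangiocyte markers, Sox9, the most abundant, was highest in KO a, with 401 and 218 in KO, against 231 and 275 in WT, in the larger table, and 266 and 132 in KO, against 156 and 154 in WT, in the smaller. The other 4 (Krt19, Krt7, Epcam and Spp1) summed to less in KO a than in any other library, with 59.9 and 85.2 in KO, against 108 and 76.7 in WT, in the larger table, and 74.8 and 107 in KO, against 115 and 148 in WT, in the smaller. Among T and NK cell markers, Cd4, the most abundant, was highest in KO a, with 130 and 62.0 in KO, against 54.9 and 82.2 in WT, in the larger table, and 140 and 50.1 in KO, against 82.8 and 44.1 in WT, in the smaller, while the other 5 summed to less in KO a than in KO b in both tables. Summed markers of B and plasma cells were higher in both KO libraries of the larger table (at least 90.7, against at most 87.8 in WT) and overlapped in the smaller. The part of these cells in the values below was not tested; the main counts are given with and without KO a. In bulk RNA, fewer cells of a type and less RNA per cell cannot be told apart.

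None of the 44 genes passed the authors' test. In the authors' deposited larger table, DESeq2's Wald test gave 0 of 44 members an adjusted p under 0.05, where 0.296% of 14180 tested genes passed. In the authors' deposited smaller table it gave 0 of 43, where 0.266% of 11661 genes passed; Sec24c, with a mean count of 21.3, had no adjusted p there. At an unadjusted p under 0.05 the counts were again 0 and 0 in the authors' deposited tables, beside 3.62% and 4.11% of all tested genes. The lowest unadjusted p of any member was 0.0638 for Lman1 in the authors' deposited larger table and 0.107 for Preb in the smaller. limma, run on the normalised counts of each library, also called 0 and 0 members, against 0.00732% of 13663 genes and 0% of 11095, and at an unadjusted p under 0.05 it had 1 and 1, beside 7.03% and 6.87% of genes. Whether libraries of one genotype stem from different animals is not written in the labels, so these p-values measure the spread between libraries, which may be technical.

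The intervals set limits on the size of any difference. At the members' median standard error, a call would have needed a log2 fold change of 0.36 (larger) or 0.46 (smaller) in the authors' deposited tables. The largest member values were -0.16 for Lman1 in the authors' deposited larger table and 0.19 for Spcs3 in the smaller. By limma, the 95% interval of the KO minus WT difference lay within a 1.5-fold change in either direction for all 44 members of the larger table. It did so for 41 of 43 in the smaller, where the intervals of Sec11c and Sec23a reached further. A difference smaller than these intervals was not detectable with 2 libraries per genotype, so the data do not show that the levels are equal.

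**Figure D1:**
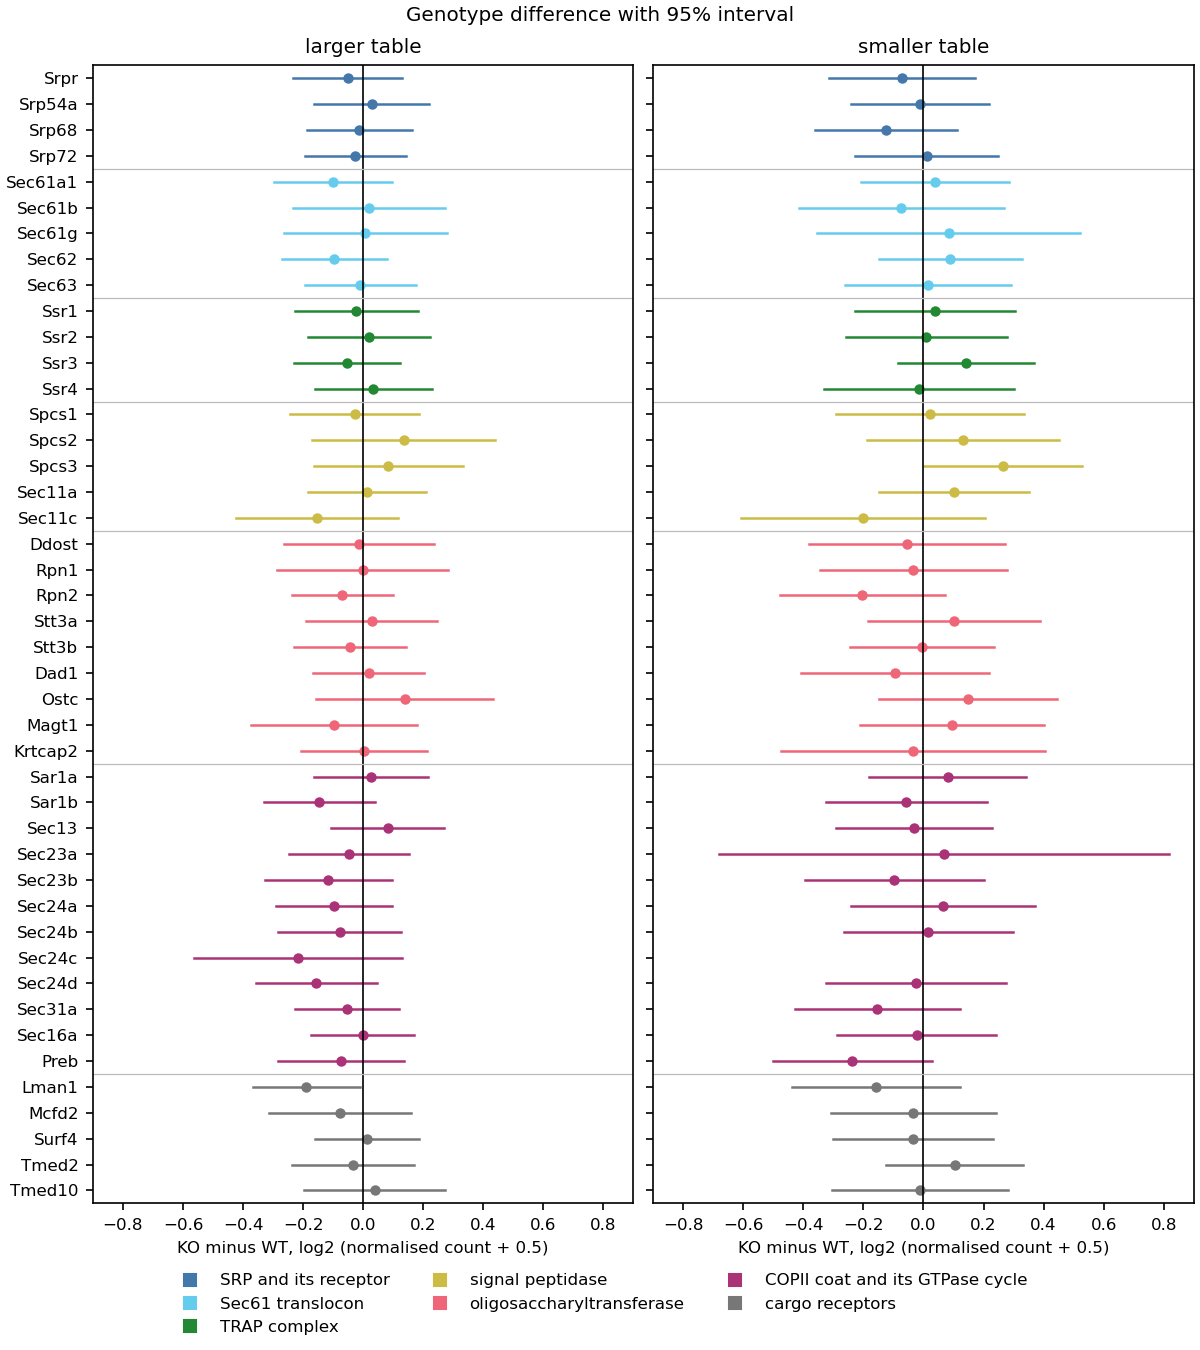
KO minus WT difference of each gene on the log2 (normalised count + 0.5) scale, in the larger (left) and smaller (right) table; points are limma estimates, bars are 95% intervals and colours mark roles. The interval excludes 0 for Lman1 in the larger table and Spcs3 in the smaller, and neither passed adjustment over all genes; Sec24c was not tested in the smaller table.

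The members lay close to 0 in both tables. The median size of their log2 fold change, signs dropped, was 0.04 (larger) and 0.06 (smaller) in the authors' deposited tables, beside 0.06 and 0.08 for tested genes in the same range of mean counts. Of the 44, 27 were below 0 in the authors' deposited larger table (median -0.02), beside 50.4% of all tested genes, and 23 in the authors' deposited smaller table (median 0.00), beside 49.7%. Both KO libraries lay below both WT libraries for 7 members of the larger table (Sec62, Sec11c, Rpn2, Sar1b, Sec24a, Sec24d and Lman1) and above them for 0, beside 19.5% and 18% of 13663 genes. In the smaller table it was 4 below (Srp68, Rpn2, Sec31a and Preb) and 4 above (Ssr3, Spcs3, Sec11a and Tmed2), beside 20.4% and 18.6% of 11095 genes. All 4 counts lie under the background shares, and Rpn2 alone is among the lower genes of both tables.

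The KO libraries differed from each other by more than the genotypes did for most members. The first difference is between single libraries and the second between means of 2 libraries, which vary less. The sizes are thus unlike measures, and the shares of all tested genes are given beside the counts. KO a was above KO b for 37 of 44 members in the larger table (median log2 difference 0.13), beside 49.1% of all tested genes. In the smaller table it was above for 33 of 44 (median 0.16 over the 43 tested), beside 48.5%. The size of KO a minus KO b exceeded that of KO minus WT for 39 and 35 of the 44 members, beside 60.9% and 61.1% of all tested genes. That of WT a minus WT b did so for 26 and 31 members, beside 54.2% and 51.9%. The median size over the members was 0.14 and 0.21 between the KO libraries, 0.05 and 0.10 between the WT libraries, and 0.05 and 0.07 between genotypes, in the larger and smaller table. The medians differed in sign between roles, which was not tested. Oligosaccharyltransferase genes had median KO a minus KO b differences of 0.13 and 0.29 in the larger and smaller table, signal peptidase genes 0.25 and 0.24, Sec61 genes 0.14 and 0.24, and TRAP genes 0.15 and 0.22. COPII genes were mixed: KO a was below KO b for 7 of 12 in the larger and 8 of 12 in the smaller table (medians -0.08 and -0.18), while Sar1a, Sec13, Sec23b and Sec31a had KO a above KO b in both. In the other roles KO a was above KO b for all members of the larger table and for all but 3 of the smaller. Members with a longest transcript under 3000 bases had a median KO a minus KO b difference of 0.14 (larger) and 0.21 (smaller), beside 0.03 and 0.05 for tested coding genes as short. Those of 3000 bases or more had 0.12 and 0.11, beside -0.05 and -0.07 for tested coding genes as long. KO a minus KO b fell with transcript length over the 44 members (Spearman's rho -0.42 in the larger and -0.49 in the smaller table). The part of length in the differences between roles was not tested. Between the WT libraries the median over all members was -0.02 (larger) and 0.02 (smaller).

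**Figure D2:**
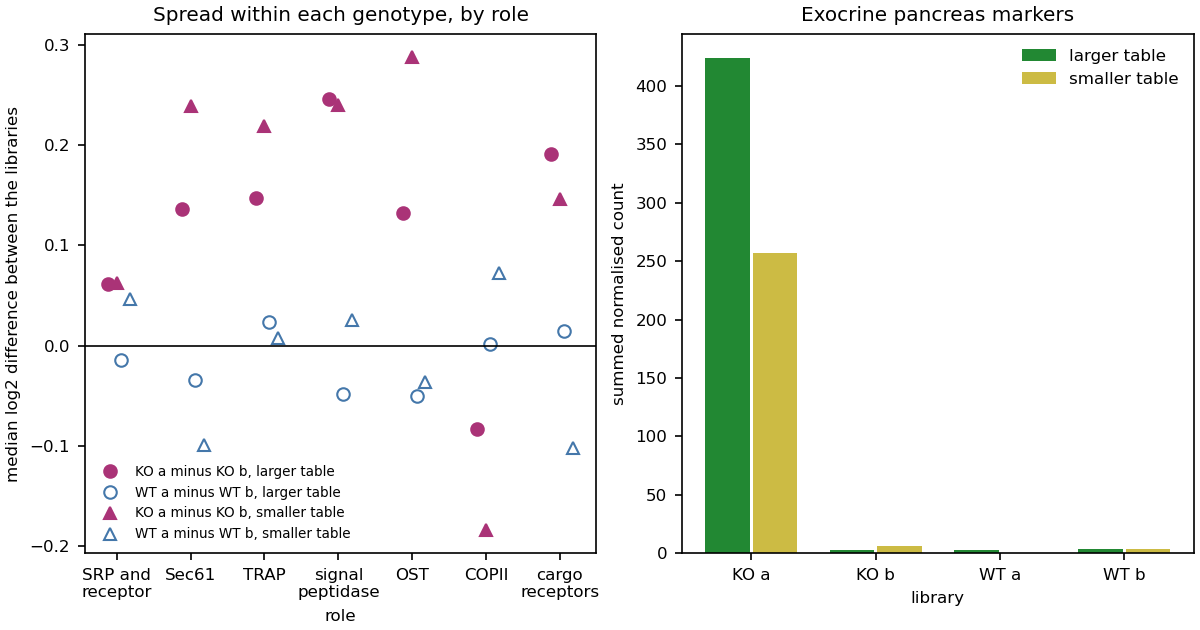
Left, the median log2 difference between the libraries of each genotype (y axis) for each role (x axis): filled symbols are KO a minus KO b and open symbols WT a minus WT b, circles the larger and triangles the smaller table. Right, the summed normalised count of 5 exocrine pancreas markers in each library; KO a has 423 and 257, while the other libraries have at most 5.96.

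More members lay below 0 without KO a and fewer without KO b. The direction of these shifts follows from KO a lying above KO b for most members, so it is no separate result. By limma, 28 of 44 members of the larger table were below 0 with all libraries, 40 of 44 without KO a and 18 of 44 without KO b, beside 51%, 50.8% and 50.8% of all tested genes. The smaller table had 23 of 43 below 0 with all libraries, 30 without KO a and 13 without KO b, beside 50.1%, 50.4% and 51.3%. The 23 translocon, TRAP, signal peptidase and oligosaccharyltransferase genes, put together after their values were seen, were all below 0 in the larger table without KO a, with a median log2 difference of -0.11, against 12 of 23 and a median of 0.00 with it. Of these 23, 16 were below 0 in the smaller table without KO a (median -0.10), against 9 with it (median 0.02). Without KO b the direction turned round: 5 of the 23 were below 0 in the larger table (median 0.08) and 2 in the smaller (median 0.13). The sign for this group thus depended on which KO library was kept. No member passed adjustment by limma without KO a in either table, where 0.0146% of genes in the larger and 0% in the smaller did. At an unadjusted p under 0.05 it was 2 members in the larger and 5 in the smaller table, beside 4.77% and 10.8% of genes. The lone KO library is then assumed to vary like the others.

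**Figure D3:**
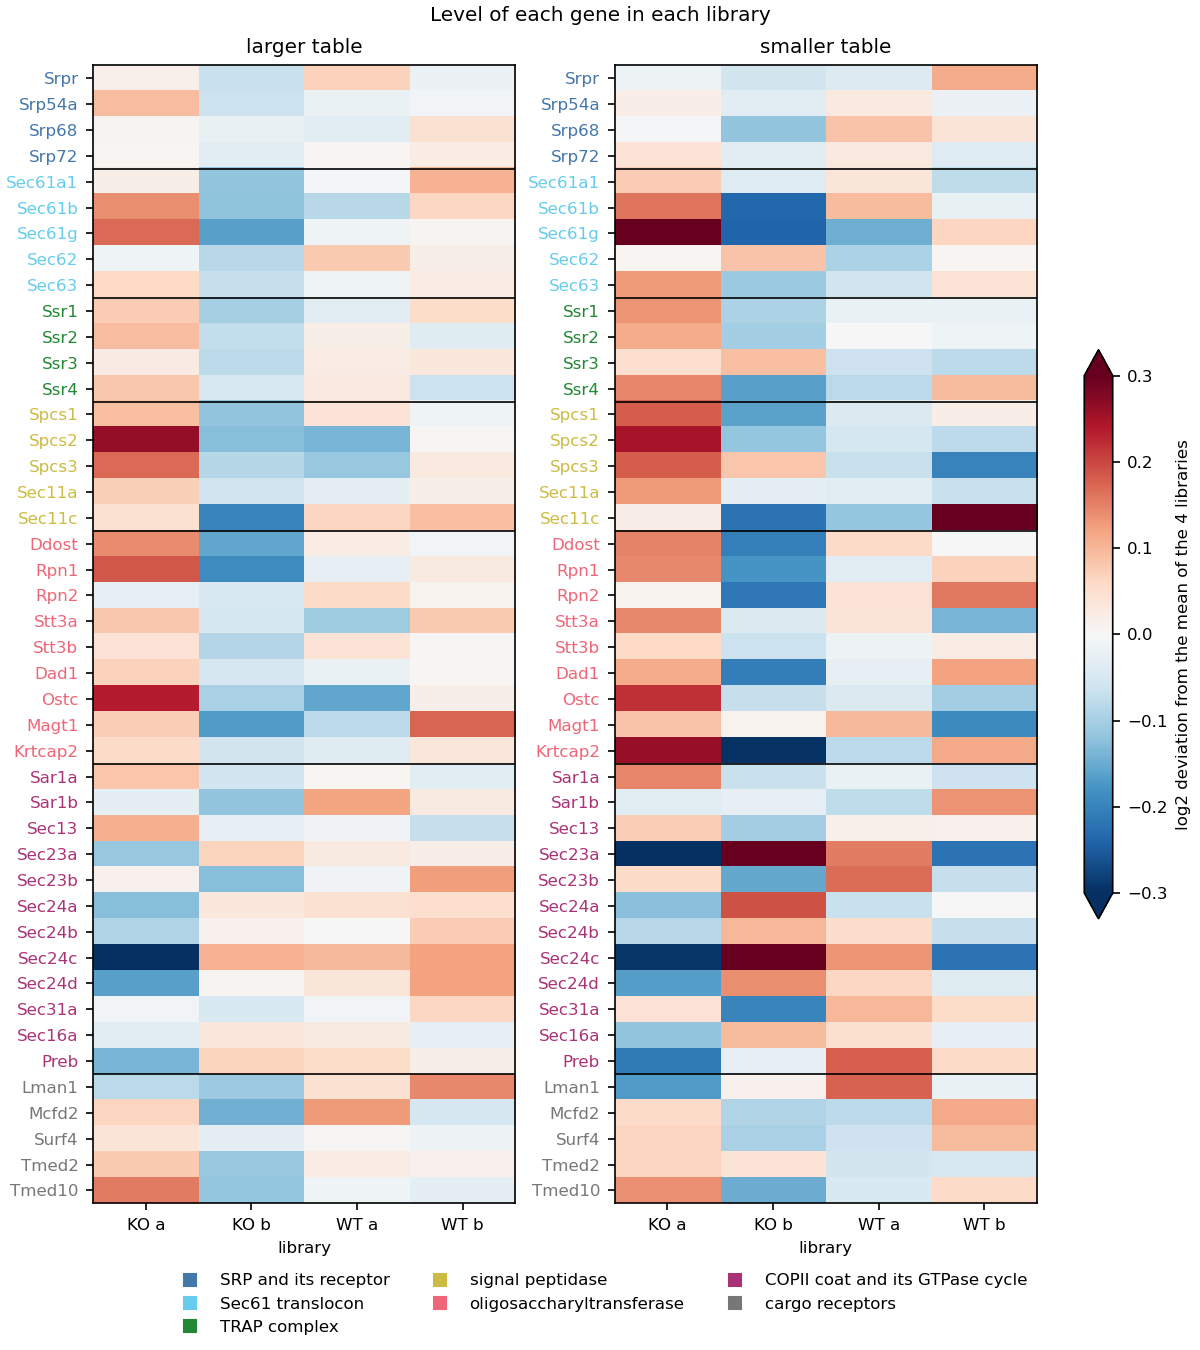
Log2 deviation of each gene (rows, grouped and coloured by role) from its mean over the 4 libraries of a table (columns KO a, KO b, WT a, WT b), with red above and blue below the mean; colours saturate at 0.3. KO a is mostly red and KO b mostly blue from Sec61 to the oligosaccharyltransferase. KO a lies below KO b in both tables for Sec23a, Sec24a, Sec24b, Sec24c, Sec24d, Sec16a and Preb.

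SRP and its receptor had the smallest median differences between the KO libraries, 0.06 in both tables. Srpr, the receptor subunit that docks SRP at the ER membrane, had 4324 and 4080 normalised counts in KO a and KO b, against 4485 and 4223 in WT a and WT b, in the larger table. Its genotypes overlapped, with log2 fold changes of -0.04 ± 0.09 (SE, larger) and -0.06 ± 0.11 (smaller) in the authors' deposited tables. Srp54a, the subunit that binds signal sequences, had 3099 and 2776 in KO, against 2864 and 2888 in WT, also overlapping. Srp54a shares 72.5% of its 31-base words with other annotated genes and Srpr 26.9%, so both counts are uncertain. Srp72, which with Srp68 forms a heterodimer of the particle, had 4259 and 4049 in KO, against 4219 and 4029 in WT, in the smaller table. Srp68 had 2205 and 2038 in KO, against 2347 and 2275 in WT, in the smaller table, so both KO libraries were lower there. Its limma difference was -0.12 (95% interval -0.36 to 0.11), and in the larger table it was -0.01.

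In the Sec61 channel the small subunits varied most between libraries. Sec61a1 encodes the pore itself and had 2889 and 2628 normalised counts in KO, against 2845 and 3069 in WT, in the larger table. It had 1275 and 1176 in KO, against 1240 and 1147 in WT, in the smaller table, and the genotypes overlapped in both. Sec61g, a single-pass subunit that clamps the pore, had 3479 in KO a and 2356 in KO b, against 2511 and 2908 in WT, in the smaller table. The KO libraries of Sec61g thus enclosed both WT libraries, and its limma interval ran from -0.35 to 0.52. Sec61b, the other small subunit, had 2773 and 2108 in KO, against 2652 and 2444 in WT, in the smaller table. Its limma difference there was -0.07 with all libraries, -0.27 without KO a and 0.12 without KO b. Sec62 and Sec63, which help post-translational import, differed: Sec63 overlapped in both tables, while Sec62 had 3360 and 3198 in KO, against 3579 and 3429 in WT, in the larger table, with no overlap. Sec62 had 2493 and 2635 in KO, against 2327 and 2494 in WT, in the smaller table, where the genotypes overlapped.

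The TRAP complex, which sits beside the channel and aids the entry of some signal sequences, is encoded by Ssr1 to Ssr4. Ssr3 had 4347 and 4046 normalised counts in KO, against 4340 and 4367 in WT, in the larger table. The smaller table had 2675 and 2752 for Ssr3 in KO, against 2476 and 2448 in WT, so both KO libraries were higher there. The log2 fold changes of Ssr3 were -0.04 ± 0.09 (larger) and 0.11 ± 0.11 (smaller) in the authors' deposited tables. Ssr4 had 1817 and 1661 in KO, against 1753 and 1643 in WT, in the larger table, and 2074 and 1673 in KO, against 1771 and 2002 in WT, in the smaller. Ssr1 and Ssr2 overlapped in both tables, with limma differences between -0.02 and 0.04.

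Signal peptidase held the highest fold changes among the members. Spcs3, a subunit of the complex (chromosome 8, 54520433 to 54529998, minus strand, GRCm38), had 801 and 748 normalised counts in KO, against 675 and 615 in WT, in the smaller table. Both KO libraries were higher, with a log2 fold change of 0.19 ± 0.13 in the authors' deposited smaller table (unadjusted p = 0.124, adjusted p = 1.00 by DESeq2's Wald test). The limma difference was 0.27 (95% interval 0.00 to 0.53), with 0.22 without KO a and 0.31 without KO b. In the larger table Spcs3 had 1453 and 1218 in KO, against 1195 and 1320 in WT, and overlapped. Spcs2, another subunit, had 1974 in KO a and 1505 in KO b, against 1495 and 1650 in WT, in the larger table. Its log2 fold change was 0.11 ± 0.11 in the authors' deposited larger table. The limma difference of Spcs2 there was 0.13 with all libraries, -0.06 without KO a and 0.33 without KO b. The catalytic subunits are Sec11a and Sec11c. Sec11a had 1092 and 982 in KO, against 976 and 955 in WT, in the smaller table, with both KO libraries higher, and overlapped in the larger, as Spcs1 did in both. Sec11c had 422 and 355 in KO, against 427 and 435 in WT, in the larger table, and 458 and 387 in KO, against 416 and 563 in WT, in the smaller. Limma intervals of Sec11c were -0.42 to 0.12 (larger) and -0.61 to 0.21 (smaller).

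The oligosaccharyltransferase genes had no common direction. Ostc, a subunit of the complex that works at the translocon, had 957 and 760 normalised counts in KO, against 730 and 822 in WT, in the larger table. It had 1013 and 830 in KO, against 845 and 810 in WT, in the smaller table. KO a was the highest of the 4 libraries for Ostc in both tables, and the limma differences of 0.14 and 0.15 became -0.03 and 0.00 without it. Without KO b they were 0.30 and 0.29. Rpn2, a structural subunit, had 2362 and 2326 in KO, against 2500 and 2421 in WT, in the larger table. Rpn2 had 1401 and 1200 in KO, against 1435 and 1554 in WT, in the smaller table, so the KO libraries were lower in both. The limma differences of Rpn2 were -0.07 (95% interval -0.24 to 0.10) and -0.20 (-0.48 to 0.07), and neither passed. Magt1, a subunit of the complex that holds Stt3b, had 1494 and 1261 in KO, against 1343 and 1603 in WT, in the larger table. The remaining genes (Ddost, Rpn1, the catalytic subunits Stt3a and Stt3b, Dad1 and Krtcap2) overlapped between genotypes in both tables, with limma differences between -0.10 and 0.10.

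Most COPII genes were below 0 in the larger table, without any of them passing. Of 12 such genes, 10 (larger, median -0.06) and 7 (smaller) were below 0 in the authors' deposited tables. Of all tested genes, 50.4% (larger) and 49.7% (smaller) were below 0 there. Without KO a, 8 of 12 were below 0 by limma in the larger table (median -0.02), against 10 of 12 with it (median -0.08). Sec24d, a cargo-binding subunit of the inner coat, had 3312 and 3727 normalised counts in KO, against 3802 and 4030 in WT, in the larger table. Its limma difference was -0.16 (95% interval -0.36 to 0.05) with all libraries, -0.07 without KO a and -0.24 without KO b. Sar1b, the GTPase whose loss in people causes chylomicron retention disease, had 4530 and 4252 in KO, against 5011 and 4707 in WT, in the larger table. Its limma difference was -0.15 (95% interval -0.33 to 0.04), with -0.19 without KO a and -0.10 without KO b. The Sar1b libraries overlapped in the smaller table, with 4511 and 4533 in KO, against 4374 and 5067 in WT. Preb, the exchange factor that loads Sar1 with GTP (chromosome 5, 30950853 to 30960361, minus strand, GRCm38), had 1996 and 2275 in KO, against 2620 and 2407 in WT, in the smaller table. Its log2 fold changes were -0.06 ± 0.10 (larger) and -0.19 ± 0.12 (smaller) in the authors' deposited tables, and the limma difference in the smaller table was -0.24 (95% interval -0.50 to 0.03).

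Sec13, which shares the outer coat with Sec31a, was the highest of the COPII genes in the authors' deposited larger table at 0.07 ± 0.09. It had 2787 and 2545 normalised counts in KO, against 2570 and 2467 in WT, which overlap. Sec23a, the subunit that stimulates GTP hydrolysis by Sar1, had 370 in KO a and 774 in KO b, against 581 and 448 in WT, in the smaller table. The KO libraries enclosed both WT libraries, and the limma interval ran from -0.68 to 0.82. In the larger table Sec23a had 2309 and 2618 in KO, against 2548 and 2537 in WT. Sec24c had 303 in KO a and 408 in KO b, against 406 and 413 in WT, in the larger table. Its limma difference of -0.22 became 0.00 without KO a and -0.43 without KO b. Sec24a, another cargo-binding subunit, had 5055 and 5642 in KO, against 5703 and 5716 in WT, in the larger table, with both KO libraries lower. Sec31a, of the outer coat, had 3252 and 2751 in KO, against 3380 and 3275 in WT, in the smaller table, with both KO libraries lower. Sec16a, the scaffold of ER exit sites, and Sar1a, Sec23b and Sec24b overlapped in both tables.

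Lman1 had the lowest unadjusted p of the list. It encodes ERGIC-53, a lectin that with Mcfd2 carries coagulation factors V and VIII out of the ER, and lies on the minus strand of chromosome 18, from 65980738 to 66022580 (GRCm38). Lman1 had 4088 and 4010 normalised counts in KO, against 4463 and 4777 in WT, in the larger table. Both KO libraries were lower and close to each other, with a log2 fold change of -0.16 ± 0.09 in the authors' deposited larger table (adjusted p = 1.00 by DESeq2's Wald test). The limma difference was -0.19 (95% interval -0.37 to -0.01), with -0.20 without KO a and -0.18 without KO b. Lman1 had 1376 and 1563 in KO, against 1750 and 1529 in WT, in the smaller table, which overlap. Its limma difference there was -0.16, with -0.07 without KO a and -0.25 without KO b. Its partner Mcfd2 had 6069 and 5251 in KO, against 6336 and 5605 in WT, in the larger table, and overlapped in both. Surf4, a receptor for lipoproteins among other cargo, had 5522 and 5277 in KO, against 5387 and 5313 in WT, in the larger table. Tmed10 and Tmed2 belong to the p24 family of cargo receptors. Tmed10 had 3376 and 2793 in KO, against 3004 and 2974 in WT, in the larger table. Tmed2 had 3491 and 3435 in KO, against 3213 and 3230 in WT, in the smaller table, with both KO libraries higher and a limma difference of 0.10 (95% interval -0.12 to 0.33). Tmed2 shares 24.7% of its 31-base words with other annotated genes.

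No member passed a test of the genotype difference between the tables. Computed from the authors' deposited tables, the difference of log2 fold changes (smaller minus larger) ran from -0.13 to 0.16. By a z test with Benjamini-Hochberg adjustment over 11604 genes, 0 of 43 members passed, where 0.0172% of genes did. At an unadjusted p under 0.05 it was again 0 members, beside 0.138% of genes. The test treats the tables as independent; the z values had an SD of 0.54 over all genes, so its p-values are too large, and with z divided by that SD 0 members passed as well. Whether the tables share animals was not tested, so a pattern seen in both tables is not shown to recur in other animals.

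Levels per length ranged widely among the members. They are given as mean count per kb of exon, scaled so that all genes of a table sum to 1e+06; the tables were normalised separately. Sar1b was highest, at 195 in the larger and 198 in the smaller table. The cargo receptors Tmed2 (114 and 71.0), Mcfd2 (109 and 77.3) and Surf4 (86.6 and 50.5) came next in the larger table. Sec11c (3.18 and 3.60) and Sec24c (3.22 and 0.182) were lowest. The median member had 27.4 in the larger and 20.4 in the smaller table, beside 6.17 and 6.60 for all tested genes.

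Some members had a very different level in the 2 tables. The smaller table's level over the larger table's had a median of 0.740 over the members and 0.852 over the 11604 genes tested in both, whose 5th and 95th percentiles were 0.290 and 1.83. Sec24c (chromosome 14, 20674308 to 20694852, plus strand, GRCm38) was far below that range at 0.0566, with mean counts of 383 (larger) and 21.3 (smaller) in the authors' deposited tables. Sec23a was below it at 0.220. Above it lay Sec13 (1.89), Sec61b (2.20) and Sec61g (2.78). The ratio fell with transcript length over the members (Spearman's rho -0.45, n = 44) and alike over coding genes (rho -0.45, n = 10466), as a description across genes of the same libraries. What the tables differ in, RNA preparation or another step, cannot be told apart.

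**Figure D4:**
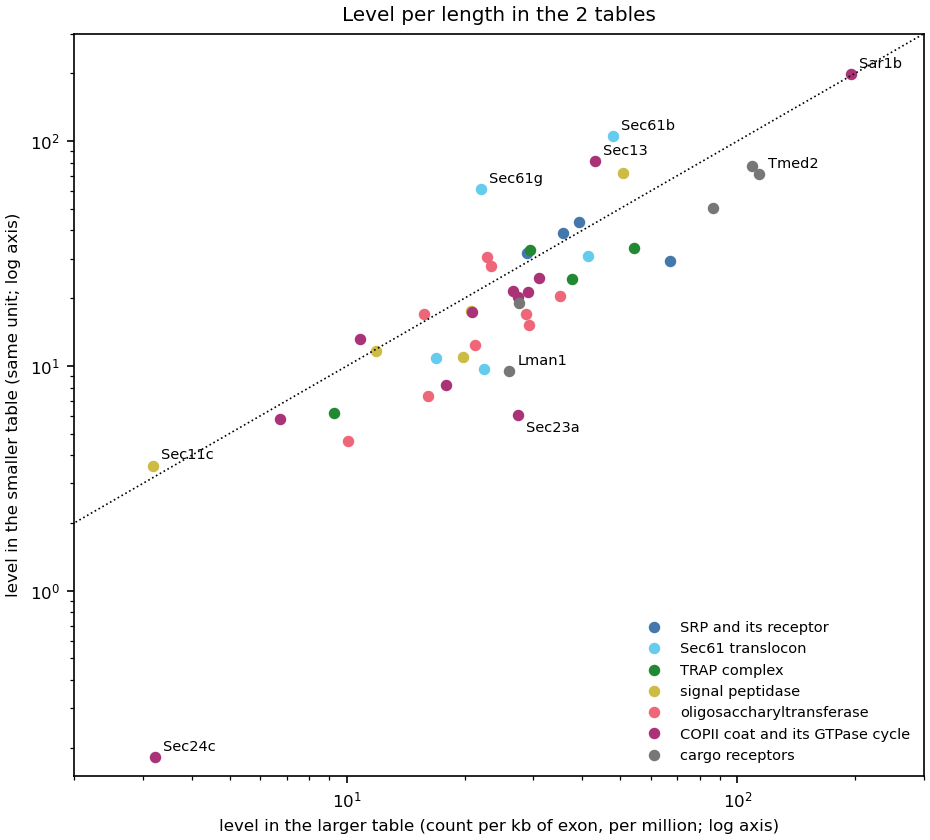
Level per length of each of the 44 genes in the larger (x) and smaller (y) table, both log axes, coloured by role; the dotted line marks equal values in tables that were normalised separately. Sar1b is highest in both, Sec61b, Sec61g and Sec13 lie above the line, and Sec23a and Sec24c lie far below it.

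Within families of paralogs, the shares were alike in KO and WT libraries, apart from the Sec23 pair in the smaller table. Sar1b made up 86.1% and 86.5% of the summed Sar1a and Sar1b level in KO a and KO b, against 87.9% and 87.5% in WT, in the larger table, and 89.1% to 91.4% over the 4 libraries of the smaller. Stt3b held 74.0% and 74.0% of the Stt3 level in KO, against 76.4% and 73.5% in WT, in the larger table. Sec11a held 77.7% to 80.4% of the Sec11 level in the larger and 71.5% to 78.9% in the smaller table. Among the Sec24 genes, Sec24d and Sec24a dominated in both tables, with at most 46.4% and 40.6% in the larger, while Sec24c held 4.14% to 4.95% there and 0.306% to 0.413% in the smaller. The Sec23 pair turned round between the tables: Sec23a held 69.9% and 74.4% in KO, against 72.3% and 70.2% in WT, in the larger table. Sec23a held 23.1% and 42.1% in KO, against 30.4% and 28.4% in WT, in the smaller table. A share within a library does not depend on its depth.

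**Figure D5:**
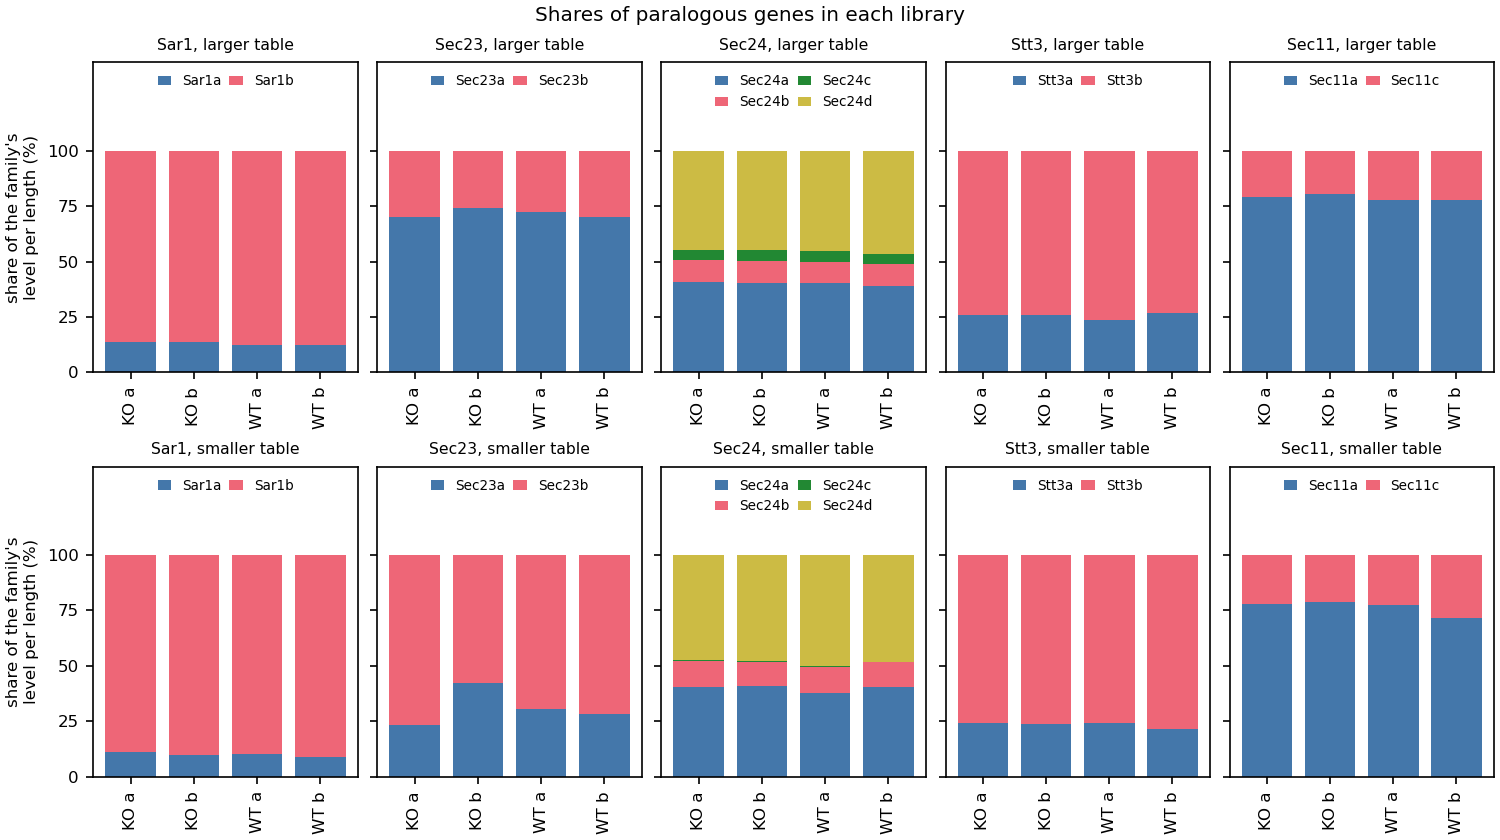
Share (%) of each paralog in the summed level per length of its family, for each library (KO a, KO b, WT a, WT b), in the larger (top) and smaller (bottom) table. The shares of Sar1, Sec24, Stt3 and Sec11 genes are alike in all libraries of a table, while Sec23a holds at least 69.9% in the larger table and at most 42.1% in the smaller.

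Other genes of the pathway, 158 on 8 lists from SRP to COPI retrieval and regulators, gave no call either. Of 147 tested genes 0 passed in the authors' deposited larger table, and of 145 tested 0 passed in the smaller, with 1 and 5 at an unadjusted p under 0.05, which is under the 3.62% and 4.11% of all tested genes. More of the genes were below 0 than above, 98 of 147 (larger) and 86 of 145 (smaller) in the authors' deposited tables. Of all tested genes, 50.4% (larger) and 49.7% (smaller) were below 0 in the authors' deposited tables. Both KO libraries were below both WT libraries for 40 and 35 of 144, beside 19.5% of 13663 and 20.4% of 11095 genes. Both KO libraries were above both WT libraries for 18 and 20 of 144, beside 18% and 18.6%. Whether these counts depart from the shares of all genes was not tested. The genes at an unadjusted p under 0.05 were all higher in KO. Tmed5, a p24 cargo receptor, had 2552 and 2530 normalised counts in KO, against 2267 and 2082 in WT, in the larger table, and 1303 and 1459 in KO, against 950 and 1048 in WT, in the smaller. Both KO libraries of Tmed5 were higher in both tables, with log2 fold changes of 0.18 ± 0.09 (larger) and 0.35 ± 0.12 (smaller) in the authors' deposited tables (adjusted p = 1.00 and 0.401 by DESeq2's Wald test). Tmed7, of the same family, had 1165 and 1186 in KO, against 938 and 936 in WT, in the smaller table. Arf1 and Arf4, GTPases that recruit the COPI coat, had 9261 and 8878 (Arf1) and 4830 and 5050 (Arf4) in KO, against 7591 and 6986 (Arf1) and 4080 and 3740 (Arf4) in WT, in the smaller table. Gnpnat1, an enzyme of UDP-GlcNAc synthesis, had 3955 and 4297 in KO, against 3433 and 3349 in WT, in the smaller table. The lowest adjusted p among Tmed7, Arf1, Arf4 and Gnpnat1 in the authors' deposited smaller table was 0.713 by DESeq2's Wald test, for Arf4.

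Cytoplasmic polyadenylation elements, the sites CPEB proteins are known to bind, were counted as TTTTAT or TTTTAAT on the transcript strand of each gene's longest 3′UTR in GENCODE M21. They were found in 32 of 44 members (72.7%), beside 62.8% of 11799 coding genes tested in the larger table. The median 3′UTR was 1342.5 bases for members and 1173 for those genes. Sec24a had the most among the members, with 12. Among members with an element, 20 of 32, and without, 7 of 12, were below 0 in the authors' deposited larger table (medians -0.02 and -0.01). Of those coding genes, 3905 of 7411 with an element and 2335 of 4388 without were below 0 there (medians -0.01 and -0.01). In the authors' deposited smaller table, 13 of 32 members with an element and 10 of 12 without were below 0, beside 49.7% of all tested genes. The member medians were 0.02 and -0.04 there, beside 0.02 and -0.04 for the same coding genes with and without an element. Genes with an element had longer 3′UTRs, with a median of 1685.5 against 415 bases among the members, so element and length cannot be told apart.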

How the data were processed

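RNA from purified ER and total liver of Cpeb4 KO and WT mice was sequenced. Per the submitters' processing notes, STAR 2.3.0e, DESeq2 1.6.3 and mm10 were used, in roles that the notes as given here do not name; no annotation, counting tool or strand setting is stated. Each deposited table gives, per the file headers, a mean signal (the authors' mean of counts divided by size factors), a log2 fold change and the standard error of it, the Wald score (the statistic), a p-value and an adjusted p-value. The fold changes are moderated and so understate differences.

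Reads per library were recovered from the deposited means (15 significant digits), for means of 1 to 10000. The weight of 1 read in each library came from genes with single reads, whole-number solutions were enumerated, and the solution kept was the one whose refitted moderated fold change and standard error matched the deposited ones within 2e-06. The planned count test was replaced by the authors' deposited test, since no column of counts per library was given, and limma 3.58.1 (R 4.3.3; log2 of normalised count + 0.5, trended variance, Benjamini-Hochberg over all genes) was added after seeing the data. The recovery, the limma fit and the z test between tables were each tested on simulated data.

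Positions, lengths and 3′UTRs came from GENCODE release M21 (GRCm38), which named 23484 and 21080 of the listed identifiers. Of the members, 16 overlap a gene on the other strand, whose reads cannot be told apart without strand. Full values are given for the members with the highest and lowest fold change of each role and table; other pathway genes are named at an unadjusted p under 0.05; other members with values were singled out after their values were seen. The members and lists were chosen with earlier results of these data known. Alternatives were the adjustment, its threshold, the mean filter, genes with shared sequence (over 25% of 31-base words), centring, the length used and leaving out each library. Python 3.11.15, pandas 2.3.3, numpy 2.4.6, scipy 1.17.1 and matplotlib 3.10.9 were used.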

Additional observations from a re-analysis of the deposited data

How the results depend on the processing

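The count of called members was 0 in both tables under every alternative run: no mean filter, a threshold of 0.1, Benjamini-Yekutieli adjustment, genes with shared sequence left out, limma with all libraries and limma without each library in turn. Several of these alternatives could hardly have called more members. The Benjamini-Yekutieli adjustment is stricter than the main one. With all libraries, limma called 0.00732% of 13663 genes in the larger table and 0% of 11095 in the smaller, so its 0 for the members carries little weight. With 1 library left out, 18 to 40 members (larger) and 14 to 30 (smaller) were below 0. The lowest counts were without KO b and the highest without KO a. Centring, a mean count of at least 100 and leaving out shared sequence kept both counts within 1.5 times. Single members, none of them called, often had another sign than deposited: 19 of 44 (larger) and 11 of 43 (smaller) without KO a, 9 and 16 without KO b, 9 and 7 without WT a, and 6 and 15 without WT b. With the longest transcript as length the median level moved to 29.9 in the larger and 25.8 in the smaller table, by construction of the unit. No member differed between the tables when z values were scaled by their SD or medians were subtracted. No paired analysis was possible because the libraries behind the tables carry no replicate numbers. A low count limits Sec24c in the smaller table, where its 4 libraries had 17.0 to 27.4 normalised counts.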
